A study of Oryza sativa with 40 samples.

Results

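OsLHY and OsPCL1 are 2 clock genes of rice, out of 17905 genes that probe sets of the array name one at a time, and 3 of its 57194 rice probe sets measure them. The probe sets were those whose annotated symbol or RefSeq synonym is OsLHY (gene LOC4344703, synonyms CCA1 and COC1, with 2 probe sets) or OsPCL1 (gene LOC4326391, with 1 probe set). The data are 40 Affymetrix Rice Genome arrays of the japonica cultivar Nipponbare, 20 of flag leaves and 20 of seedling leaves. Leaves of both kinds were taken every 4 h at 10 times, the first at 8 h and the last at 44 h, in 2 biological replicates, and time 0 is the midnight of the first day. The light period began at 8 h and ended at 20 h, so that 8 h and 32 h are the end of a night and 20 h and 44 h its start. Flag leaves, the last leaf below the panicle, were those of field-raised plants of 3 months, which were entrained at 32 °C in the light and 30 °C in the dark. Seedling leaves came from 17-day-old plants grown in a greenhouse at 28 °C and 25 °C. Tissue, age and growth conditions therefore differ together and cannot be told apart, and whether leaves of several plants were pooled is not given in the sources used here.

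The plant circadian clock is a loop of transcription factors that repress each other at different times of the day. LHY and its partner CCA1 are MYB factors of the morning in Arabidopsis, where they bind a motif called the evening element in the promoters of evening genes and hold those genes down. PCL1, also called LUX, is a GARP-type MYB factor of the evening. Together with ELF3 and ELF4 it forms the evening complex in Arabidopsis, which represses daytime genes during the night. Between dawn and dusk the pseudo-response regulators (PRR genes) follow each other and repress the morning genes. GI is an evening protein with roles in protein turnover and flowering.

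The values are signals in linear array units, scaled by the authors to the same target on each array. Array medians were 48.8 to 64.4 in flag leaves and 50.5 to 68.2 in seedling leaves. Leaf marker genes were strong, with 5 of 7 measured markers in flag leaves and 6 of 7 in seedling leaves at a median above 1000 (summed signal 75540 to 230400 in flag leaves and 38080 to 134900 in seedling leaves). Of 3 floral organ genes none reached that median (summed signal 173.1 to 679.6 in flag leaves and 157.6 to 440.9 in seedling leaves). Of 6 measured endosperm storage protein genes only GLUA2 did (summed signal 928.4 to 3998 in flag leaves and 1013 to 1624 in seedling leaves). The 2 seedling arrays of 44 h stood apart. Across the probe sets tested, their median correlation with the seedling arrays of 20 h was 0.911 and the highest median, 0.938, was with those of 16 h, whereas the flag arrays of 44 h correlated at 0.969 with those of 20 h. The other pairs of times 24 h apart gave medians of 0.945 to 0.975 in flag leaves and 0.962 to 0.976 in seedling leaves. The replicates of seedling 44 h correlated at 0.982. Rhythms, peaks and likeness are given with and without these arrays.

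OsLHY was the morning gene of the pair in both tissues. In flag leaves the signals of replicates 1 and 2 were 39115 and 50949 at 8 h, 23893 and 28311 at 12 h, 1727 and 2060 at 16 h, and 339.6 and 370.2 at 20 h. During the night they were 902 and 1321 at 24 h and 6092 and 9516 at 28 h, and at the next dawn 38773 and 44463. The second day gave 23976 and 25623 at 36 h, 1710 and 1967 at 40 h, and 531.9 and 348.5 at 44 h. The gene was thus high at both dawns, low at both dusks, and already climbing in the middle of the night. By mean signal the flag leaf times ran 8, 32, 12, 36, 28, 16, 40, 24, 44 and 20 h, and replicates overlapped between 8 and 32 h, 12 and 36 h, 16 and 40 h, and 44 and 20 h, which are the pairs of equal clock time. The highest mean was 126.9 times the lowest.

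In seedling leaves OsLHY read 22719 and 21123 at 8 h, 13736 and 13779 at 12 h, 3145 and 3318 at 16 h, and 636.3 and 712.6 at 20 h. The night values were 621 and 576.2 at 24 h, 4620 and 4173 at 28 h, and 19708 and 21352 at 32 h. On the second day they were 19753 and 18145 at 36 h, 4202 and 3261 at 40 h, and 7654 and 7986 at 44 h. The last pair broke the daily course, since the second dusk lay above 28 h and below 12 h in the order of the levels instead of beside the first dusk. Among neighbours in the order of the levels, replicates overlapped between 8 and 32 h, 32 and 36 h, 28 and 40 h, and 40 and 16 h. The highest mean, at 8 h, was 36.62 times the lowest, at 24 h. In a leaf sample more cells that express a gene and more transcript in each cell cannot be told apart.

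The other OsLHY probe set stayed between 1.9 and 51 (median 5.85), below the median of the array on 39 of 40 arrays. It did not reach the mean signal of 100 that the tests required and gave no usable profile.

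OsPCL1 was the evening gene. Its flag leaf signals were 57.3 and 46.2 at 8 h, 141 and 148.8 at 12 h, 862.4 and 1123 at 16 h, and 28734 and 24983 at 20 h. They were 9978 and 9119 at 24 h, 2088 and 2082 at 28 h, and 52.9 and 127.1 at 32 h. From 36 h to 44 h they were 221.1 and 225.5, 1997 and 1699, and 25438 and 24238. The level was close to the array median at dawn, and both dusks were far above every other time. Only 20 and 44 h, and 32 and 8 h, overlapped between neighbours in the order of the levels, and since the lowest mean, at 8 h, lay below the array median on both arrays, no fold between the highest and the lowest is given.

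In seedling leaves OsPCL1 read 147.4 and 184.3 at 8 h, 201.3 and 286 at 12 h, 1373 and 1255 at 16 h, and 18853 and 15741 at 20 h. The night values were 8021 and 5738 at 24 h, 1352 and 1350 at 28 h, and 88.3 and 122.9 at 32 h. On the second day they were 80.3 and 132.4 at 36 h, 388.9 and 1380 at 40 h, and 2150 and 2103 at 44 h. Here too the second dusk left the course of the first day, and its level fell between those of 24 h and 28 h. The replicates at 40 h were the most unlike of the 10 times (coefficient of variation 79.23%), and the tests that use them are given without each of them. The highest mean, at 20 h, was 163.8 times the lowest, at 32 h. The signals at 32 h were only 1.49 and 1.9 times the array median, so this fold is rough.

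**Figure D1:**
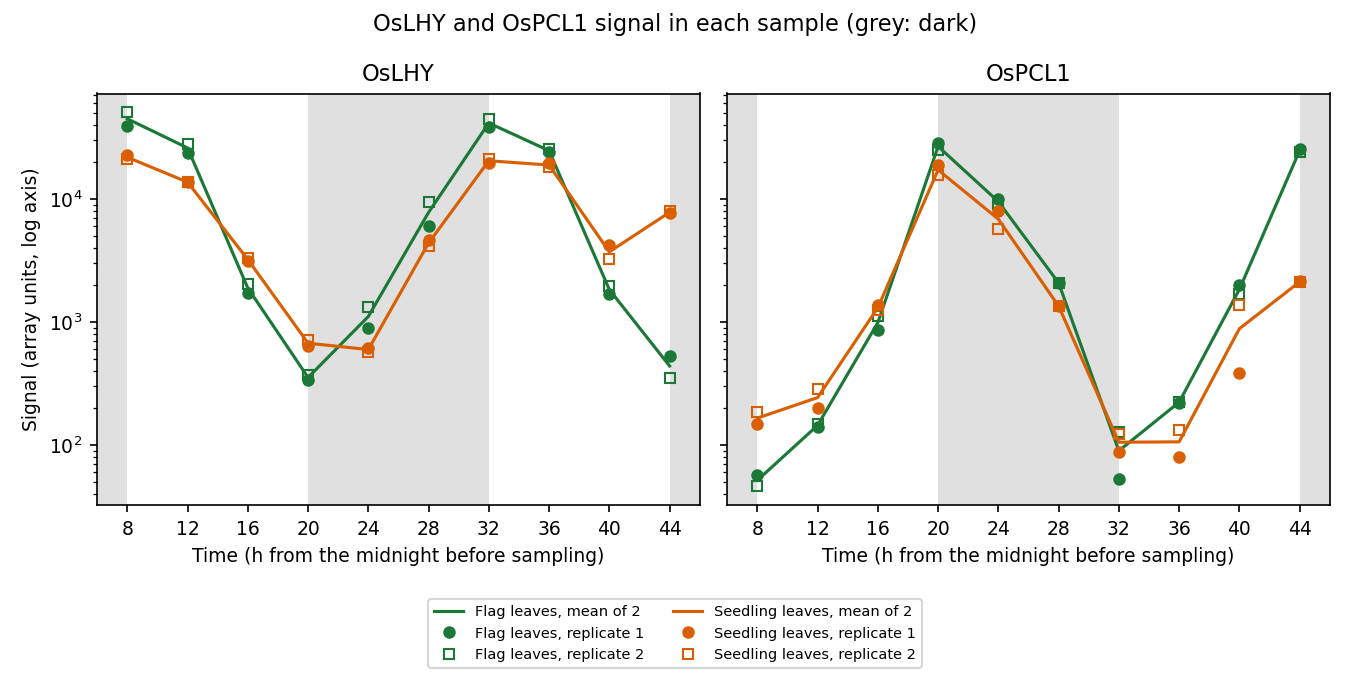
Signal of OsLHY (left) and OsPCL1 (right) against time, on a log axis, for each replicate of flag leaves (green) and seedling leaves (orange), with the mean of 2 replicates as a line and darkness in grey. OsLHY is highest at the dawns and OsPCL1 at the first dusk in both tissues, and at 44 h the flag points of OsLHY lie at 531.9 and 348.5 against 7654 and 7986 in seedling leaves, while those of OsPCL1 lie at 25438 and 24238 against 2150 and 2103.

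A 24-h cosine was fitted to log2(signal + 32) of every probe set whose signal averaged 100 or more, with a linear trend, in limma. The amplitude is how far the fitted peak lies above the fitted mean, in log2 units, and p-values were adjusted by Benjamini-Hochberg over all probe sets tested. Both genes were rhythmic in both tissues, where 69.5% of the probe sets tested in flag leaves and 42.5% in seedling leaves were called. For OsLHY the amplitude was 3.43 (SE 0.0952, limma adjusted p = 2.594e-14) in flag leaves with a peak at 8.82 h, and 2.30 (SE 0.275, adjusted p = 8.59e-06) in seedling leaves with a peak at 9.88 h. For OsPCL1 it was 3.91 (SE 0.174, limma adjusted p = 2.275e-11) in flag leaves with a peak at 21.8 h, and 3.21 (SE 0.194, adjusted p = 2.221e-09) in seedling leaves with a peak at 22.0 h. Without the 44 h arrays the seedling amplitudes were 2.76 (SE 0.0712) for OsLHY and 3.41 (SE 0.172) for OsPCL1, and both stayed called. The peaks of OsLHY were then at 8.82 h in flag leaves and 9.765 h in seedling leaves. Those of OsPCL1 were at 21.79 h and 21.92 h.

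The difference in rhythm between the tissues was taken as the amplitude of the difference between their fitted 24-h cosines. It holds differences in amplitude and in peak time together, is never negative, and is not the gap between the 2 amplitudes. For OsLHY it was 1.37 on the log2 scale (SE 0.298, limma adjusted p = 0.001331), in a test that called 43.2% of all probe sets. Leaving out the 44 h arrays of both tissues gave 1.03 (SE 0.122, adjusted p = 5.021e-07). With replicate 2 alone (without replicate 1) the value was 1.48 (limma adjusted p = 0.0852) and with replicate 1 alone 1.27 (limma adjusted p = 0.134), so neither replicate passed by itself. For OsPCL1 the difference was 0.73 (SE 0.266, limma adjusted p = 0.0720), which did not pass. It was 0.51 without the 44 h arrays (adjusted p = 0.274) and 1.08 without a linear trend (adjusted p = 0.0163), which did pass. A 12-h cosine added to the model, which tests for a daily course sharper or flatter than a sinusoid, was called for neither gene, where 16.9% of the probe sets were called in flag leaves and 1.72% in seedling leaves. Its amplitude for OsLHY was 0.28 (SE 0.0818, limma adjusted p = 0.0630) in flag leaves and 0.67 (SE 0.230, adjusted p = 0.299) in seedling leaves, and the seedling value without the 44 h arrays was 0.19.

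Fitted to each replicate series, the peak of OsPCL1 came 12.8 h and 13.1 h after that of OsLHY in flag leaves, and 12.3 h and 11.9 h after it in seedling leaves. The mean lag was 13.0 ± 0.184 h in flag leaves and 12.1 ± 0.296 h in seedling leaves (SD, n = 2 each). Without the 44 h arrays the means were 13.0 ± 0.191 h in flag leaves and 12.1 ± 0.287 h in seedling leaves. The ranges did not overlap, and with 2 series in each tissue no test was made.

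The steps between neighbouring times show when each gene moved. In flag leaves all 9 steps were called for both genes, where 22.8% of all probe-set tests over the 9 steps were called. The steepest fall of OsLHY there was between 12 h and 16 h, by 3.76 on the log2 scale (SE 0.204, limma adjusted p = 4.745e-12), and OsPCL1 rose most between 16 h and 20 h, by 4.72 (SE 0.343, adjusted p = 3.453e-10). Several of the smaller flag leaf calls rested on single arrays. For OsLHY 12 h minus 8 h was lost without replicate 1 of 12 h or replicate 2 of 8 h, and 36 h minus 32 h without replicate 2 of 32 h. For OsPCL1 12 h minus 8 h was lost without either array of 12 h or replicate 2 of 8 h and with a larger constant added to the signal (0.60, limma adjusted p = 0.112), 24 h minus 20 h without replicate 1 of 20 h or 2 of 24 h, and 36 h minus 32 h without replicate 1 of 32 h (0.68) or 2 of 36 h. In seedling leaves 7 of 9 steps were called for each gene, where 8.2% of all probe-set tests over the 9 steps were. The exceptions were 36 h minus 32 h for both genes (OsLHY -0.12, OsPCL1 -0.01, the second turning positive with median centring and with quantile normalization), 24 h minus 20 h for OsLHY (-0.16) and 12 h minus 8 h for OsPCL1 (0.47). The call of OsLHY for 12 h minus 8 h in seedling leaves (-0.67, limma adjusted p = 0.0420) was lost when any of its 4 arrays was left out, with a smaller constant added to the signal (adjusted p = 0.0545), with median centring (0.0904) and with no filter on dim probe sets (0.121), and that of OsPCL1 for 24 h minus 20 h without replicate 1 of 20 h or 2 of 24 h.

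Differences between the tissues in these steps were added after the values had been seen. OsLHY passed in 4 of 9 steps and OsPCL1 in 1 of 9 (3 without replicate 1 and 4 without replicate 2 of seedling 40 h, 2 without replicate 2 of flag 32 h), where 11.6% of all probe-set tests over the 9 steps passed. Between 12 h and 16 h OsLHY fell further in flag leaves, with a flag minus seedling difference of -1.68 (SE 0.289, limma adjusted p = 7.087e-04). Between 20 h and 24 h it rose in flag leaves by 1.54 while the seedling step was -0.16, a difference of 1.70 (SE 0.289, limma adjusted p = 6.059e-04). Thus the nightly climb of OsLHY was called by 24 h in flag leaves and by 28 h in seedling leaves. With samples every 4 h this does not measure a lead in hours. The fitted peaks lay at 8.82 h and 9.88 h (8.82 h and 9.765 h without the 44 h arrays). From 36 h to 40 h the fall was again larger in flag leaves (difference -1.39, limma adjusted p = 0.003616), a call that quantile normalization did not keep (-0.69). From 40 h to 44 h OsLHY fell by 2.01 in flag leaves and rose by 1.07 in seedling leaves (difference -3.08, SE 0.289, limma adjusted p = 7.414e-08). In the same interval OsPCL1 rose by 3.73 in flag leaves and by 1.49 in seedling leaves (difference 2.24, SE 0.485, limma adjusted p = 0.001603). Both genes thus rose together in seedling leaves before the second dusk, although without replicate 1 of seedling 40 h the rise of OsPCL1 was 0.61 and not called (limma adjusted p = 0.179).

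At matched times the level of OsLHY differed between flag and seedling leaves at 9 of 10 times, where 45.9% of all probe-set tests over the 10 times were called. The direction changed through the day. Flag leaves were higher by 1.03 at 8 h, 0.92 at 12 h, 0.83 at 24 h, 0.79 at 28 h and 1.02 at 32 h on the log2 scale (SE 0.204 each). They were lower at 16 h (-0.77), 20 h (-0.87), 40 h (-1.001) and 44 h (-4.08, limma adjusted p = 1.074e-13). The value at 36 h was 0.39 and not called (limma adjusted p = 0.123, 95% interval -0.03 to 0.81), and it was -0.34 with quantile normalization. OsLHY thus swung further in both directions in flag leaves. With quantile normalization the higher dawn levels were smaller and not called (0.14 at 8 h, 0.25 at 12 h and 0.27 at 32 h), and without replicate 2 of flag leaves the calls at 24 h (0.57) and 28 h (0.47) were lost.

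OsPCL1 differed between the tissues at 4 of 10 times, no more than the share of 45.9% over all probe sets. At 8 h it was lower in flag leaves (-1.24, SE 0.343, limma adjusted p = 0.004007), a time at which its flag leaf signal was near the array median. From 36 h on it was higher in flag leaves, by 0.91 at 36 h (limma adjusted p = 0.0318), 1.28 at 40 h (adjusted p = 0.003794) and 3.53 at 44 h (SE 0.343, adjusted p = 6.318e-09). On the first day from 12 h to 28 h no time passed, and at 20 h the difference was 0.64 (95% interval -0.07 to 1.35). The call at 36 h was weak. It was lost with the larger added constant (0.59, limma adjusted p = 0.0799), with no filter on dim probe sets (adjusted p = 0.0683), and without replicate 1 (adjusted p = 0.0892) or 2 (0.107) of flag 36 h or replicate 1 of seedling 36 h (0.63, adjusted p = 0.247). The call at 40 h was lost without replicate 1 of seedling 40 h (0.41), and without replicate 2 of seedling 40 h the number of times called was 7.

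**Figure D2:**
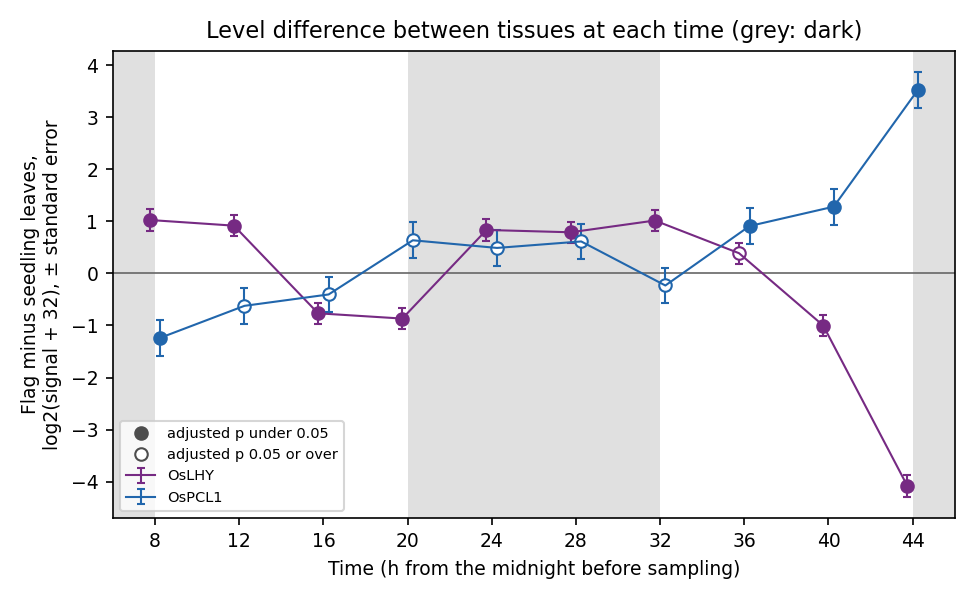
Flag minus seedling difference of log2(signal + 32) at each of the 10 times for OsLHY (purple) and OsPCL1 (blue), with standard errors from limma and filled points where the adjusted p was under 0.05 over all probe sets. OsLHY lies between -1.001 and 1.03 up to 40 h and reaches -4.08 at 44 h, whereas OsPCL1 reaches 3.53.

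The samples of 20 h and 44 h were both taken at the start of a night, 24 h apart. In flag leaves OsLHY read 531.9 and 348.5 at 44 h, against 339.6 and 370.2 at 20 h, and OsPCL1 25438 and 24238 at 44 h, against 28734 and 24983 at 20 h. The replicates of the 2 dusks overlapped for both genes. The 44 h minus 20 h difference was 0.26 for OsLHY (SE 0.204, 95% interval -0.16 to 0.68, limma adjusted p = 0.822) and -0.11 for OsPCL1 (SE 0.343, interval -0.82 to 0.60, adjusted p = 0.985). Neither passed, in a comparison that called 0.665% of all probe sets.

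In seedling leaves the dusks differed for both genes. OsLHY averaged 7820 ± 235 at 44 h and 674.5 ± 54.0 at 20 h (SD, n = 2 each), a ratio of 11.59. OsPCL1 averaged 2126 ± 33.6 at 44 h and 17297 ± 2201 at 20 h (SD, n = 2 each), which is 8.134-fold lower at 44 h. The replicates of the dusks were far apart for both genes, in opposite directions. On the log2 scale OsLHY rose by 3.48 (SE 0.204, 95% interval 3.05 to 3.90, limma adjusted p = 3.117e-11) and OsPCL1 fell by 2.999 (SE 0.343, interval -3.71 to -2.29, adjusted p = 7.616e-07). The comparison called 29.8% of all probe sets, 11.5% higher and 18.4% lower, and its median over all of them was -0.125. The flag minus seedling difference of these changes was -3.21 for OsLHY (SE 0.289, limma adjusted p = 1.729e-07) and 2.89 for OsPCL1 (SE 0.485, adjusted p = 2.285e-04), where 18.9% of all probe sets passed. All of these rest on the 2 seedling arrays of 44 h that stood apart from the others of their clock time, and what set those arrays apart was not tested. No value here checks the time that their labels give, so 44 h in seedling leaves means the time as labelled.

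The other clock times sampled on both days gave no call for either gene. For 32 h minus 8 h, 36 h minus 12 h and 40 h minus 16 h, 0 of 3 differences were called for either gene in either tissue, where 5.01% of all probe-set tests over these 3 differences were called in flag leaves and 0.82% in seedling leaves. The values for OsLHY were -0.10, -0.07 and -0.04 in flag leaves and -0.09, 0.46 and 0.19 in seedling leaves, and the first of the flag values turned positive with quantile normalization and the others with median centring. For OsPCL1 they were 0.48, 0.53 and 0.88 in flag leaves, against -0.53, -1.003 and -0.80 in seedling leaves. The flag minus seedling differences of OsPCL1 were 1.00, 1.53 and 1.69 and 0 of 3 passed (1 without replicate 1 and 2 without replicate 2 of seedling 40 h), where 2.12% of all probe-set tests did. The seedling value for 40 h minus 16 h was 0.07 without replicate 1 of seedling 40 h and -1.68 without replicate 2 (limma adjusted p = 0.002282).

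The ratio of the OsLHY signal to the OsPCL1 signal was taken within each sample. Probe sets differ in brightness per transcript, so that only its change between samples can be read. In flag leaves the mean log2 ratio was 9.76, 7.49, 0.94 and -6.24 from 8 h to 20 h, -3.13, 1.87 and 8.98 from 24 h to 32 h, and 6.79, -0.01 and -5.85 from 36 h to 44 h. In seedling leaves it was 7.05, 5.84, 1.30 and -4.68 from 8 h to 20 h, -3.50, 1.70 and 7.62 from 24 h to 32 h, and 7.52, 2.34 and 1.88 from 36 h to 44 h. The flag values of 8 h divide by OsPCL1 signals below the array median on both arrays, and 1 of 2 at 32 h does, so the upper end of the flag course is not a firm measurement. In seedling leaves the ratio at 44 h lay above that of the first dusk in both replicates.

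At 44 h the 2 flag samples had log2 ratios of -5.58 and -6.12, against -6.40 and -6.08 at 20 h. The 2 seedling samples had 1.83 and 1.93 at 44 h, against -4.89 and -4.47 at 20 h. The change was 0.39 in flag leaves (exact two-sided permutation test, p = 0.6667) and 6.56 in seedling leaves (exact two-sided permutation test, p = 0.3333, the smallest that 2 against 2 samples can give). With 2 samples at each dusk this test cannot reach 0.05, so it does not decide whether the ratio changed. The separate limma tests above called the seedling changes of OsLHY and OsPCL1, in opposite directions. Flag and seedling leaves lay within 0.38 of each other at 16 h, 24 h and 28 h, while at 44 h the flag minus seedling difference was -7.73.

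**Figure D3:**
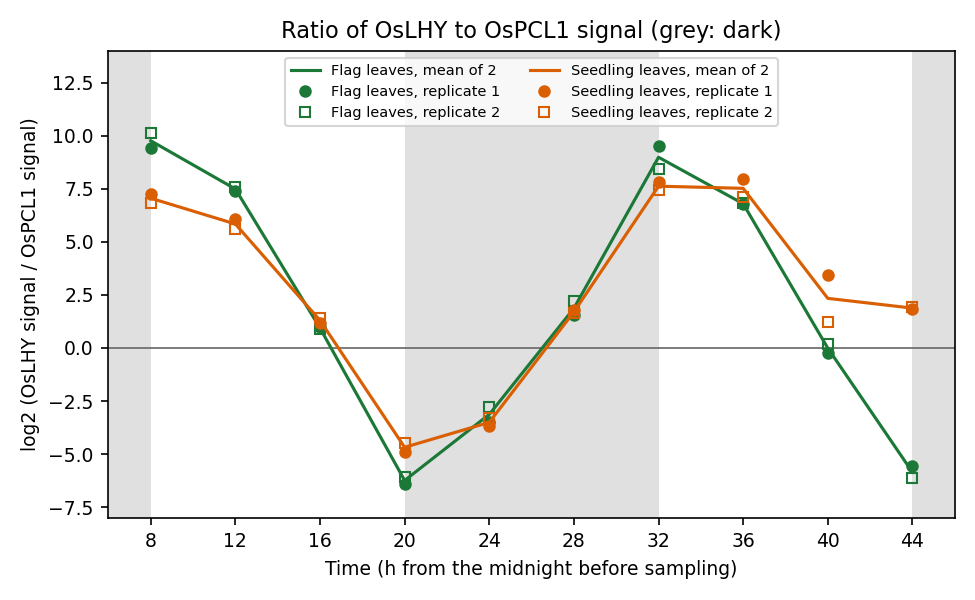
Log2 of the OsLHY signal over the OsPCL1 signal against time in each replicate of flag leaves (green) and seedling leaves (orange), with the mean of 2 replicates as a line and darkness in grey. At the second dusk the flag samples lie at -5.58 and -6.12 and the seedling samples at 1.83 and 1.93.

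Other clock genes were set beside the pair. Of 14 names on the list 7 matched a probe set, and besides OsLHY and OsPCL1 these were OsPRR73, OsPRR95, OsPRR37, OsPRR1 and GI. ELF3, ELF4 and the others were not analysed here. All 5 were rhythmic in both tissues, with a median amplitude of 3.73 in flag leaves and 3.11 in seedling leaves (3.76 and 3.11 without the 44 h arrays). At 44 h minus 20 h, 0 of these 5 were called in flag leaves, where 0.665% of all probe sets were, and 1 of 5 in seedling leaves, where 29.8% were. OsPRR95, a pseudo-response regulator, had 20698 and 20817 at 44 h, against 11534 and 10556 at 20 h, in seedling leaves, a rise of 0.91 (SE 0.207, limma adjusted p = 0.001854).

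The genes that peak in the afternoon or evening beside OsPCL1 did not share its low second dusk in seedling leaves. GI read 13947 and 13725 at 44 h, against 14175 and 13464 at 20 h, a difference of 0.00 (SE 0.339). OsPRR1, the rice counterpart of Arabidopsis TOC1, read 4969 and 4696 at 44 h, against 4077 and 3606 at 20 h (0.33, SE 0.272, limma adjusted p = 0.389). OsPRR73 was at 0.45 (SE 0.312) and OsPRR37 at -0.04 (SE 0.288), and neither was called. Among the 7 clock genes the changes of OsLHY and OsPCL1 at this dusk were thus the widest in seedling leaves, and differences between genes were not tested. The other clock genes did differ between the days at another time. At 32 h minus 8 h, 4 of the 5 were lower at 32 h in flag leaves, where 13.1% of all probe sets were called, and 1 of 5 in seedling leaves, where 2.17% were. OsPRR73 read 135.8 and 35.3 at 32 h, against 6869 and 13238 at 8 h, in flag leaves, a difference of -6.49 (SE 0.312, limma adjusted p = 2.922e-12). The flag differences of OsPRR95 (-3.42), GI (-2.77) and OsPRR37 (-2.49) were also called, whereas those of OsLHY (-0.10) and OsPCL1 (0.48) were not. The seedling call was OsPRR95 (-0.82, limma adjusted p = 0.0378), which was lost with the smaller added constant, with median centring, with no filter, and without either array of 32 h or replicate 1 of 8 h.

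**Figure D4:**
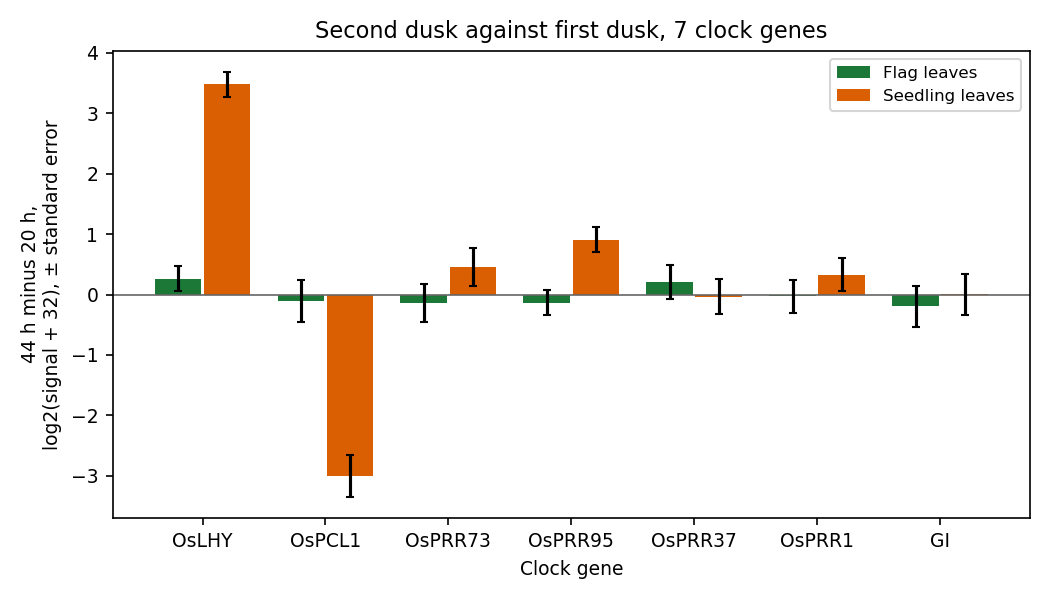
Change of log2(signal + 32) between 20 h and 44 h (44 h minus 20 h) for 7 clock genes in flag leaves (green) and seedling leaves (orange), with standard errors from limma. The seedling bars of OsLHY, at 3.48, and OsPCL1, at -2.999, stand apart from the other 12 bars, which lie between -0.19 and 0.91.

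The named genes whose course was most like OsLHY were found among 2232 probe sets of 1836 named genes, by Pearson's r over the 40 arrays after each tissue's mean was taken off. The points share tissue, time and growth conditions, and r is given as a description. They were MRS2-A (r = 0.968), a magnesium transporter, Os-RelA2 (0.945), an enzyme of the stringent response in plastids, OsSWEET2b (0.944), a sugar transporter, OsPPDKB (0.944), a pyruvate orthophosphate dikinase, and 0sFRO1 (0.941), named as a ferric reductase. In seedling leaves MRS2-A read 3131 and 2822 at 44 h, against 806 and 686.1 at 20 h, and 0sFRO1 1128 and 1163 at 44 h, against 179.7 and 177.1 at 20 h. In all 5 genes both seedling replicates of 44 h were above both of 20 h, as for OsLHY. How many of all probe sets meet this rule was not counted. The limma test of this change, which uses another rule, called 11.5% of all probe sets higher and 18.4% lower. The arrays of both dusks were among those used to pick the genes, so the count is a description only.

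The genes most like OsPCL1 were OsHsf-03 (r = 0.930), a heat stress transcription factor, OsSAPK9 (0.927) and OsSAPK7 (0.877), protein kinases of the SnRK2 family that acts in osmotic stress, OsBBD1 (0.909), a nuclease, and OsHAP3H (0.874), a subunit of the NF-Y transcription factor that delays heading in long days. In seedling leaves OsSAPK9 read 2605 and 2076 at 44 h, against 5011 and 4758 at 20 h, and OsBBD1 6854 and 6860 at 44 h, against 11685 and 10847 at 20 h. OsHsf-03 went the other way, with 3513 and 3963 at 44 h, against 1934 and 1968 at 20 h. Thus 4 of 5 genes were lower at the second dusk in both replicates, and the nearest in profile was not. The share of all probe sets lower in both replicates was not counted here either, and limma, by another rule, called 18.4% lower. The arrays of both dusks were used to pick these genes too, so this count is a description only. The same 5 genes were found for each of the pair without the seedling 44 h arrays, and 3 of 5 with Spearman's rho.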

How the data were processed

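Total RNA of each leaf sample was hybridised to its own Affymetrix array. The authors ran the MAS5 algorithm of GCOS (its version is not stated) to obtain 1 signal intensity per probe set, with global scaling to 500, and these linear signals were deposited. Of 57381 entries per array, 187 controls were left out. Tissue was taken from the sample titles, and hours from the sample numbers and the paper's list of time points, since the labels write midnight for noon and every description names seedling leaves at 8 am. Genes were named from the platform annotation and RefSeq, which name 3184 probe sets.

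Rhythms, steps, tissue differences and day differences were fitted to log2(signal + 32) by limma 3.58.1 (R 4.3.3), keeping signals averaging 100 or more (23376 probe sets in flag leaves, 24298 in seedling leaves, 24514 over all arrays) and Benjamini-Hochberg adjustment within each contrast. Differences came from a model of 20 group means, which share 1 estimate of the spread. A difference is on that scale and understates changes of dim probe sets. Scripts were tested on simulated data. Other steps used Python 3.11.15, numpy 2.4.6, pandas 2.3.3 and scipy 1.17.1, with figures in matplotlib 3.10.9. Named genes were both genes, the clock list and the 5 most alike to each. The members, lists and tests were chosen with earlier results of these data known. Replicates are named biological by the labels, and whether separate plants or cultures stand behind them is not stated, so p-values measure the spread between these samples. The number of arrays limits the precision.

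Replicates of a tissue share deviations by number. The deviations of same-numbered samples from their group means correlated above 0.1 in 45 of 45 pairs of times in flag leaves (0.196 to 0.451) and 45 of 45 in seedling leaves (0.282 to 0.552), and in 0 of 100 between the tissues. The pairing within a tissue is thus read from the data. Alternatives were another constant (1 or 128), no filter, median centring, quantile normalization, no linear trend, the first 24 h, a replicate block, each tissue alone, moderation with trend, and leaving out each replicate, each array and the 44 h arrays.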

Additional observations from a re-analysis of the deposited data

Results flagged for a closer look

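These results were set aside because a test found the effect in flag leaves to differ from that in seedling leaves. The search for outlying samples needs groups of 4 and was not made with groups of 2. For the 44 h minus 20 h change, the flag minus seedling difference was -3.21 for OsLHY, 2.89 for OsPCL1 and -1.04 for OsPRR95 on the log2 scale. For OsPRR95 the call was lost without replicate 1 of flag 20 h (-0.86) or replicate 2 of seedling 20 h (-0.98). For the steps of 4 h it was -1.68 (16 h minus 12 h), 1.70 (24 h minus 20 h), -1.39 (40 h minus 36 h) and -3.08 (44 h minus 40 h) for OsLHY, and 2.24 (44 h minus 40 h) for OsPCL1. The size of the difference in rhythm was 1.37 for OsLHY, 1.42 for GI, 1.12 for OsPRR1, 1.01 for OsPRR37 and 1.73 for OsPRR95. That test called 43.2% of all probe sets. Each of these calls was lost with either replicate left out. Those of GI, OsPRR37 and OsPRR95 were also lost in the first 24 h alone. The call of OsPRR37 was lost as well with the smaller added constant, median centring, quantile normalization and no filter. The explanation of these differences was not tested.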

How the results depend on the processing

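The 44 h minus 20 h changes of OsLHY and OsPCL1 in seedling leaves, their difference between the tissues and the rhythms of both genes kept direction and call under every alternative run. For the 44 h minus 20 h changes each alternative kept at least 1 seedling array of 44 h. None of them could therefore test that pair of arrays, which stood apart. Over 131 results, 1691 of 1787 values under alternatives kept direction and side of the threshold, and of the others 20 changed sign, of which none had passed the test. Same-numbered replicates were entered as a pair in a replicate block, which gave 1.37 for the rhythm difference of OsLHY (limma adjusted p = 0.001615) and changed no call of these results. That rhythm difference ran from 1.27 to 1.48 with 1 replicate left out and was then not called. The 12-h term of OsLHY in flag leaves was called with the larger added constant at 0.29, and the rhythm difference of OsPCL1 without a linear trend at 1.08. The seedling change of the log2 ratio was 7.08 with quantile normalization, against 6.56. Leaving out single arrays moved the number of times called for OsPCL1 to 3 to 7, of its steps that differed to 1 to 4, of its other day differences to 0 to 2 between the tissues and to 0 to 1 in seedling leaves. The higher counts came without a seedling 40 h array, except 2 steps without replicate 2 of flag 32 h. With single arrays left out the 44 h minus 20 h value of OsLHY in flag leaves ran from -0.023 (without replicate 1 of 44 h) to 0.54. The causes were not tested.

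Among values that had not passed, these changed sign. With median centring OsLHY in flag leaves was 0.0024 for 36 h minus 12 h and 0.028 for 40 h minus 16 h, OsPCL1 in seedling leaves 0.071 for 36 h minus 32 h, and OsPRR37 in seedling leaves 0.024 for 44 h minus 20 h. With quantile normalization OsLHY was 0.082 for 32 h minus 8 h in flag leaves and -0.34 between the tissues at 36 h, OsPCL1 0.043 for 36 h minus 32 h and GI -0.071 for 44 h minus 20 h in seedling leaves. With single arrays left out the ranges were -0.30 to 0.086 (32 h minus 8 h), -0.19 to 0.053 (36 h minus 12 h) and -0.16 to 0.085 (40 h minus 16 h) for OsLHY in flag leaves. In seedling leaves they were -1.68 to 0.070 (40 h minus 16 h) and -0.28 to 0.27 (36 h minus 32 h) for OsPCL1, -0.14 to 0.057 for OsPRR37 and -0.035 to 0.039 for GI (44 h minus 20 h). Among the single differences and the rhythms and rhythm differences of the other clock genes, 56 values lost their call and 6 gained one. Dim signals limit OsPCL1 near dawn, where the size of a difference depends on the added constant.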
